A study of Mus musculus with 42 samples.

Results

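Ltf, Lcn2, Ngp, Camp, S100a8, S100a9, Mmp8, Chil3, Lyz1 and Lyz2 encode proteins that neutrophils and macrophages store in granules or secrete against microbes. These 10 genes were selected because earlier results on these data put most of them higher in bone-marrow-derived macrophages (BMDM) labelled KO for Irf5, and their rows were taken from a table of 37310 genes. Of the 10, 9 had enough reads to enter the tests with 11624 genes in all, and Camp did not, with 0 to 20 reads per library. The neutrophil granule proteins are made in waves while granulocytes mature in the bone marrow: the azurophil granule proteins come first, then the specific granule proteins such as lactoferrin, lipocalin-2 and cathelicidin, then the gelatinase granule proteins. Some of these genes, above all Lcn2, are also induced by Toll-like receptor ligands in mature myeloid cells, and lysozyme is made throughout the life of a macrophage. The transcription factor C/EBP epsilon is known to drive the specific granule genes.

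BMDM were grown with L929-conditioned medium from the marrow of young adult male mice, and RNA was measured by stranded, ribodepleted total RNA sequencing. The groups were WT or KO macrophages kept as Control for 0, 2 or 24 h, or treated with palmitate or with lipopolysaccharide (LPS) for 2 or 24 h, with 3 libraries in each of the 14 groups. KO cells came from a cross of Irf5 flox/flox mice with LysM-Cre mice, and WT from wild-type mice. LysM-Cre is an insertion of Cre into Lyz2 itself, so by their label the KO cells carry an altered Lyz2 locus as well as the floxed Irf5 alleles, and the sources used here do not state whether the WT mice carried the flox or the Cre allele. They also do not state whether the 3 libraries of a group came from separate mice, so p-values measure the spread between libraries, which may be technical.

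Libraries held 2848793 to 7743442 reads in genes, with a median of 5625399. Irf5 was not lower in the libraries labelled KO (267 to 430 CPM, counts scaled to the effective library size) than in those labelled WT (210 to 389 CPM), so its level does not check the genotype labels. Palmitate and LPS left their marks: Plin2, a lipid droplet coat protein, rose with palmitate at 24 h (log2 fold change 1.99 ± 0.06 SE in WT and 2.02 ± 0.06 in KO), and Tnf rose with LPS at 2 h (4.77 ± 0.09 and 4.65 ± 0.09; edgeR adjusted p at most 1.3e-30 in these 4 comparisons, n = 3 per group). In 2 groups a library stood apart. KO, LPS 2 h, library 1, the shallowest of the series, differed from libraries 2 and 3 by a chi-square per degree of freedom of 9.32 and 7.76, against 2.94 between those libraries. WT, LPS 24 h, library 2 differed from libraries 1 and 3 by 7.48 and 6.87, against 3.21 between those. Values of the LPS comparisons that hold them are given without them where they moved.

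The cells carried the macrophage markers at high levels in every library, with Csf1r at 1622 to 2575 CPM, Adgre1 at 1159 to 3519 CPM and Cd68 at 533 to 1082 CPM. The defining marker of mature neutrophils, Ly6g, had 0 reads in 40 of 42 libraries, and the azurophil protease genes Elane and Ctsg had 0 reads in 22 and 24 libraries. A count of 0 allows a level of up to 0.397 to 1.14 CPM depending on the library (3 reads, counting error only). Several other genes listed for neutrophils, their precursors or their granules also had 0 reads in many libraries, Bpi in 39, Ms4a3 in 29 and Retnlg in 27. Others were read in every library. Mpo had 3 to 56 reads (0.447 to 8.35 CPM), Cd177 had 10 to 118 reads, and Csf3r lay at 78.6 to 176 CPM.

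The sequences of Lyz1 and Lyz2 matter for reading their counts, because the genes are neighbouring copies. Lyz2 lies at chr10:117277331-117282321 and Lyz1 at chr10:117287797-117292868 (GRCm38, both on the minus strand), 5475 bases apart, and no annotated gene overlapped either. Their coding sequences without the stop codon have 444 bases each and differ at 22 of them (95.0% identity). The first 150 coding bases are given 5′ to 3′, from the reference annotation, with the 14 bases that differ in capitals. They span the first coding exon, chr10:117292703-117292838 in Lyz1 and chr10:117282107-117282242 in Lyz2, and the start of the second, chr10:117291180-117291193 and chr10:117280792-117280805.
Lyz1: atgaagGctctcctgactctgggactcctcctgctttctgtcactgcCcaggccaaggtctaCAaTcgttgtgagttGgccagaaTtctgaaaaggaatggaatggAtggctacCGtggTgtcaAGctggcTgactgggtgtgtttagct
Lyz2: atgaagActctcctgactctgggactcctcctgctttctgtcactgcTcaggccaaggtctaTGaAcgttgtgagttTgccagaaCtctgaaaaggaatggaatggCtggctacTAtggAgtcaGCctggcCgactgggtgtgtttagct
Of the 1164 windows of 100 bases in the Lyz1 transcript, 24 (2.06%) also occur unchanged in Lyz2, with a longest identical coding run of 118 bases. S100a8 and S100a9 (chr3, 22596 bases apart, 49.6% identity) and Ngp and Camp (chr9, 570129 bases apart, 50.3% identity) shared 0 windows of that length.

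Promoters were set beside each other because Ltf, Ngp and S100a9 fell with LPS at 24 h while Lcn2 rose. The letters TTGCNNAA, a C/EBP site, were searched on both strands from 250 bases before to 50 after the RefSeq start (GRCm38.p6), and they occurred in 6 of the 10 promoters, against 10.8% of 32544 promoters of that length. A kappaB motif, searched on either strand, occurred in 4 of the 10, against 51.0% of promoters. The PU.1 letters GAGGAAGT occurred in 2 of the 10 (S100a8 and Mmp8), against 3.11%. The 250 bases before the start of Ltf (chr9:111019042-111019291, plus strand), Ngp (chr9:110419558-110419807, plus strand) and Lcn2 (chr2:32387740-32387989, minus strand) are shown 5′ to 3′, with C/EBP and kappaB letters in capitals.
Ltf: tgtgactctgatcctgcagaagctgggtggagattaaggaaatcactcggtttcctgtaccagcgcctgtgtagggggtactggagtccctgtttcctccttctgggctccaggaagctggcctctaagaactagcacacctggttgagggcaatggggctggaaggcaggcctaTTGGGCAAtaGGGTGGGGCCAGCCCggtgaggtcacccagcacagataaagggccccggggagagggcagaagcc
Ngp: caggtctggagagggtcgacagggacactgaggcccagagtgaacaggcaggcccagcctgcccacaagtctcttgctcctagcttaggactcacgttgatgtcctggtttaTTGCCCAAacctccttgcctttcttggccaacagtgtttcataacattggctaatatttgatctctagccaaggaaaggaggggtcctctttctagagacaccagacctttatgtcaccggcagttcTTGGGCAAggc
Lcn2: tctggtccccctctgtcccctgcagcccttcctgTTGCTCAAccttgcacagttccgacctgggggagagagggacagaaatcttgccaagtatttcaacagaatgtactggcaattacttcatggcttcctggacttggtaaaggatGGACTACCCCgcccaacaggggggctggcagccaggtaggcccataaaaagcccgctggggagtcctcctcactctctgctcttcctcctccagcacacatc
In Ltf the C/EBP letters stand at -75 to -68 and run nearly into a cluster of 3 overlapping kappaB matches from -65 to -51. Ngp has C/EBP letters at -138 to -131 and at -11 to -4 and no kappaB letters, and Lcn2 has C/EBP letters at -216 to -209 and a single kappaB match at -102 to -93. The remaining C/EBP matches lay in S100a9, Mmp8 and Lyz1, and the remaining kappaB matches in Chil3 and, after the start, in Camp. A match of letters is no evidence that a factor binds.

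The transcripts spanned a very wide range of abundance. Per kilobase of exon, the median level over the 42 libraries was 6243 CPM per kb for Lyz2, 33 for S100a9, 24.2 for Mmp8, 14.6 for Lyz1, 13.8 for S100a8, 13.2 for Ngp, 5.32 for Ltf, 3.57 for Lcn2, 2.7 for Chil3 and 0.880 for Camp. Lyz2, the macrophage lysozyme M, thus stood far above the others. Camp had 0 reads in 5 libraries, and the 8 genes other than Camp and Lyz2 had from 1 read (Chil3) to 2542 reads (Lcn2) in a library. The plot of levels by library shows the 10 genes in all groups.

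**Figure D1:**
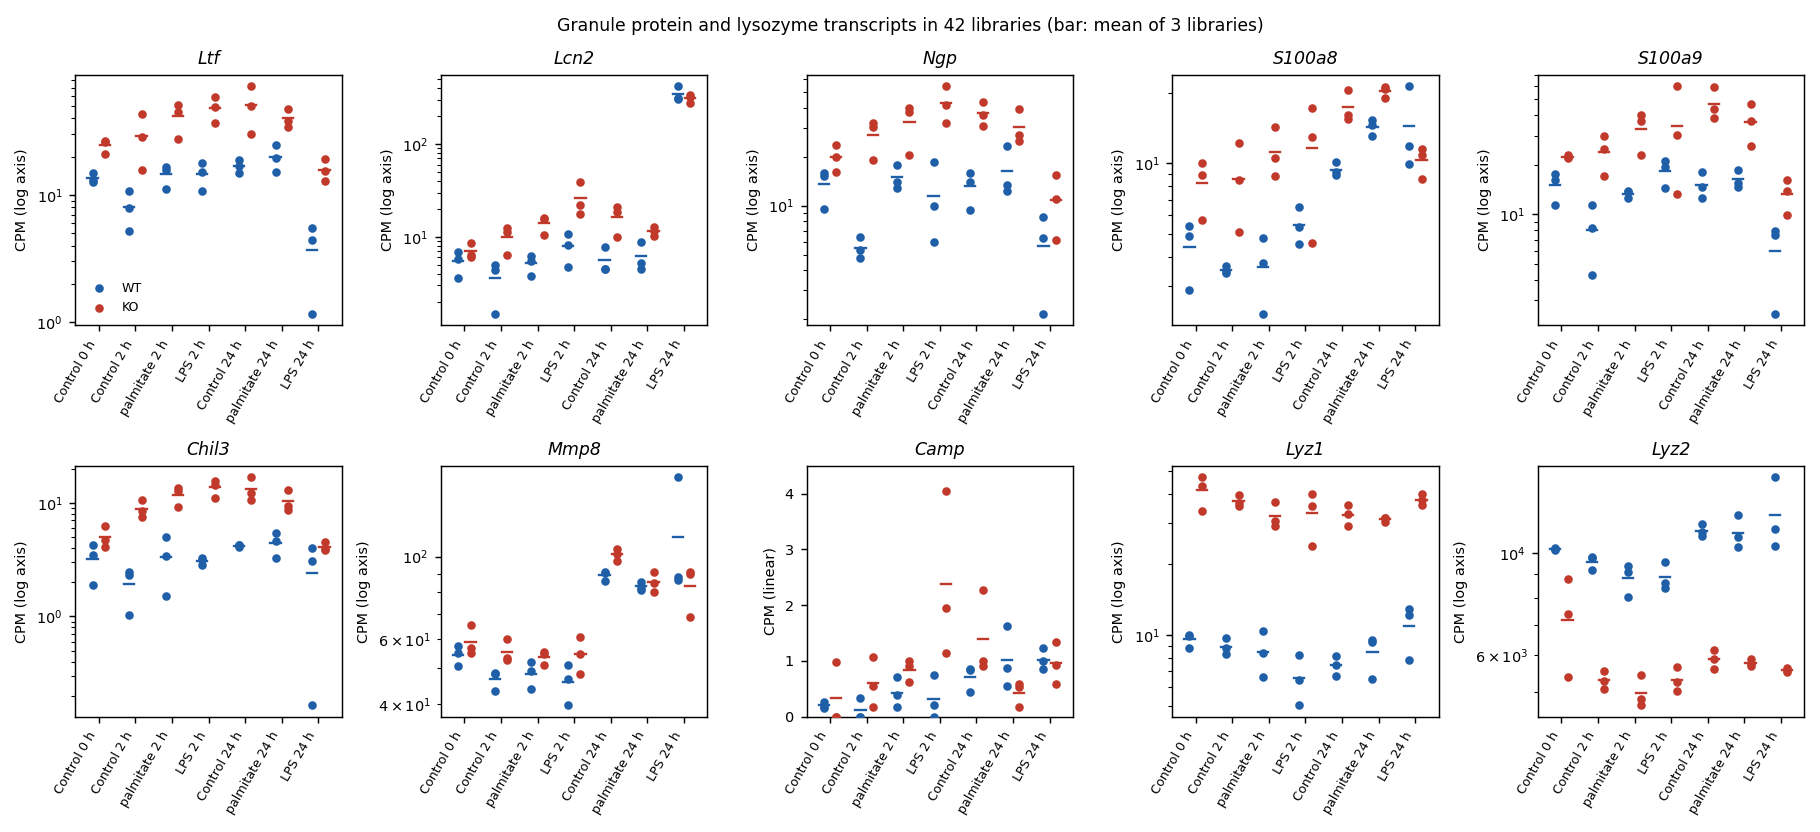
Each panel plots 1 gene as TMM-scaled CPM (log axis, linear for Camp) in the 7 conditions, with points for the 3 libraries of each group, a bar at their mean, WT in blue and KO in red. Lcn2 reaches 276 to 421 CPM with LPS at 24 h in both genotypes, and Lyz2 is lower in KO in all 7 conditions.

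The genotype difference chose these genes, so it is described here without a test. Lyz1, the intestinal-type lysozyme P, lay at 5.01 to 12.9 CPM in WT and at 23.9 to 47.1 CPM in KO, and its log2 difference of KO from WT lay between 1.79 and 2.37 in the 7 conditions. The KO libraries of Lyz1 were above the WT libraries in every condition, and so were those of Ltf, the iron-binding lactoferrin, with log2 differences of 0.86 to 2.09. Lyz2 went the other way, with 8025 to 14587 CPM in WT and 4682 to 8766 CPM in KO and log2 differences of -0.51 to -1.11, and its groups did not overlap in any condition. Since Cre sits in Lyz2, the Cre allele and the loss of Irf5 cannot be told apart in these KO libraries.

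For the granule genes the genotype difference is given by condition, and whether it differs between conditions was not tested. Ngp, a neutrophil granule protein of the cathelicidin kin, was at 15.2, 9.47 and 16 CPM in WT and 23.6, 20 and 16.2 CPM in KO at 0 h, where the groups almost met (log2 difference 0.55 ± 0.30). At 2 h in Control it was at 6.39, 5.29 and 4.74 CPM against 30.6, 32.4 and 19.2 CPM, the largest separation of this gene (2.33 ± 0.34). Chil3, a secreted chitinase-like lectin, differed by 0.64 ± 0.38 at 0 h and by 2.20 ± 0.39 in Control at 2 h. S100a9, a subunit of calprotectin, ranged from 0.57 to 1.61, and S100a8, the other subunit, from -0.47 with LPS at 24 h to 1.62 with palmitate at 2 h. Lcn2, the siderophore-binding lipocalin-2, differed by 1.77 ± 0.30 with LPS at 2 h and by -0.16 ± 0.15 with LPS at 24 h. Mmp8, the neutrophil collagenase, differed by -0.43 to 0.24. The values with LPS at 24 h hung on WT library 2: without it S100a8 differed by -0.07 ± 0.28 in place of -0.47, Mmp8 by -0.07 ± 0.10 in place of -0.43, Chil3 by 0.21 ± 0.36 in place of 0.76, Ngp by 0.55 ± 0.38 in place of 0.94, S100a9 by 0.76 ± 0.37 in place of 1.13, Lcn2 by -0.0029 ± 0.16, Ltf by 1.67 ± 0.39 in place of 2.09 and Lyz2 by -0.96 ± 0.09 in place of -1.11. Without KO LPS 2 h library 1, S100a9 differed by 1.32 ± 0.28 and S100a8 by 1.45 ± 0.30 with LPS at 2 h, and 8 genes in place of 6 lay wholly above WT there.

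Counted over all 10 genes, the KO libraries lay wholly above the WT libraries for 5 genes in Control at 0 h (14.2% of all genes tested lay wholly higher in KO), 8 at 2 h (7.7%) and 9 at 24 h (6.07%). With palmitate these were 7 genes at 2 h (7.11%) and 7 at 24 h (6.46%). With LPS they were 6 at 2 h (7.03%) and 3 at 24 h (7.03%), the last being Ltf, S100a9 and Lyz1. Lyz2 was the 1 gene wholly below WT in each condition, beside 13.9%, 9.25% and 5.56% of all genes in Control at 0, 2 and 24 h, 8.97% and 6.05% with palmitate at 2 and 24 h, and 5.78% and 6.36% with LPS at 2 and 24 h. The genes were selected on this contrast, so nothing follows from these counts. Camp, the cathelicidin precursor, was wholly higher in KO in Control at 24 h, with 3, 5 and 3 reads in WT and 4, 5 and 16 in KO, and with LPS at 2 h, with 0, 1 and 4 reads in WT and 3, 20 and 9 in KO. These reads overlap, and only the scaled levels were apart, in Control at 24 h by 0.857 CPM in WT against 0.911 CPM in KO. Without Camp, which was not tested, the counts were 8 in Control at 24 h and 5 with LPS at 2 h. The remaining 5 conditions overlapped for Camp.

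Markers of other cells were set beside this. The 8 granulocyte precursor markers that are not among the 10 genes summed to 0.722 to 7.24 CPM in WT libraries (median 3.09) and 1.49 to 15.9 CPM in KO libraries (median 5.41). In Control at 2 h, where Ngp differed most, they lay at 1.63 to 2.13 CPM in WT and wholly above that in KO, at 8.14 to 9.95 CPM, and with palmitate at 2 h at 1.78 to 4.47 and 5.44 to 10.1 CPM. In every other condition these sums overlapped between the genotypes. The 5 monocyte markers that are not among the 10 genes summed to 119 to 128 CPM in WT and 186 to 308 CPM in KO in Control at 0 h. At 24 h the sums were 106 to 120 and 131 to 134 CPM in Control, and 120 to 129 and 134 to 141 CPM with palmitate. In Control at 2 h they were 142 to 185 CPM in WT and 124 to 144 CPM in KO. There and in the remaining conditions they overlapped. F13a1 had by far the highest median of these markers, 118 CPM, and Ccr2 the next, 2.93 CPM. The 7 other mature neutrophil markers summed to 123 to 211 CPM in WT and 102 to 224 CPM in KO, nearly all of it from Csf3r and Mxd1. The 9 eosinophil, basophil and mast cell markers were wholly lower in KO in Control at 0 h (20.9 to 27.9 CPM against 29.5 to 35.2 CPM in WT). The 8 lymphoid markers were wholly higher in KO in Control at 24 h (3.54 to 7.20 CPM against 2.23 to 2.91 CPM in WT). The sums of both lists overlapped in their other conditions. The 6 stromal markers were Col1a1, Col1a2, Col3a1, Dcn, Pdgfrb and Cxcl12. Over all conditions they summed to 0.865 to 60.2 CPM in WT (median 2.81) and to 1.16 to 314 CPM in KO (median 42.8). In Control at 0 h these sums were wholly higher in KO, at 42.8 to 70.3 CPM against 0.905 to 1.42 CPM in WT. In Control at 2 h they were again wholly higher in KO, at 73.3 to 119 CPM against at most 60.2 CPM in WT. With LPS at 2 h they were at least 3.04 CPM in KO and at most 2.15 CPM in WT. In the other conditions the stromal sums overlapped. Whether other cells in the cultures had a part in the genotype differences was not tested, and in these bulk libraries more cells of a type and more RNA per cell cannot be told apart.

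The relation of the lysozyme genes within a library was plain. Lyz1 reads were 0.0536% to 0.129% of Lyz2 reads in the 21 WT libraries (median 0.0861%) and 0.456% to 0.792% in the 21 KO libraries (median 0.630%). Lyz1 was higher in the genotype in which Lyz2 was lower. The stretches the copies share, and a counting step that is not described for such reads, leave the low Lyz1 level in WT uncertain.

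**Figure D2:**
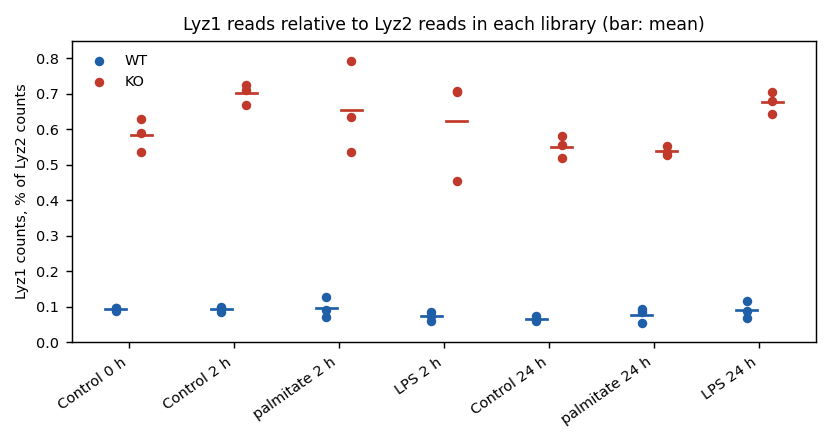
The vertical axis gives Lyz1 reads as a percentage of Lyz2 reads in each of the 42 libraries (points) with the mean of the 3 libraries (bar), WT in blue and KO in red, by condition. All WT libraries lie at or below 0.129% and all KO libraries at or above 0.456%.

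With LPS for 24 h, granule genes rose and fell in both genotypes. Lcn2 lay at 4.49, 4.46 and 7.87 CPM in WT Control and at 314, 421 and 306 CPM with LPS, a log2 fold change of 5.88 ± 0.23 (adjusted p = 5.7e-27). In KO it went from 18.4, 20.8 and 9.91 CPM to 318, 276 and 336 CPM (4.29 ± 0.20, adjusted p = 4.9e-24). Every LPS library thus lay far above every Control library, and the LPS levels of WT and KO overlapped. Treatment comparisons were made within a genotype by edgeR's quasi-likelihood F test with Benjamini-Hochberg adjustment over 11624 genes (n = 3 per group, called at an adjusted p under 0.05). Palmitate and LPS share their Control libraries. The libraries compared also entered the genotype contrast that chose the genes, so these p-values are not wholly free of that choice.

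Ltf fell with LPS at 24 h. It was at 18.8, 16.8 and 14.9 CPM in WT Control and 5.48, 1.16 and 4.44 CPM with LPS (-2.16 ± 0.38, adjusted p = 5.3e-06). In KO it was at 50.4, 72.2 and 30 CPM and 12.8, 15.5 and 19 CPM (-1.67 ± 0.27, adjusted p = 9.7e-07). The groups did not overlap in either genotype. Without WT LPS library 2 the change in WT was -1.74 ± 0.39 (adjusted p = 0.00026). Sums of markers of other cells moved both ways in the same libraries. The 7 other mature neutrophil markers rose, from 138 to 145 up to 164 to 211 CPM in WT and from 131 to 144 up to 177 to 215 CPM in KO. The 5 monocyte markers, of which F13a1 had by far the highest median, fell in sum. They summed to 106 to 120 CPM in WT Control and 31.8 to 48.2 CPM with LPS, and to 131 to 134 and 42.5 to 49.5 CPM in KO. Of 6 monocyte markers with Chil3, 2 were called higher and 1 lower in WT (19.6% and 19.9% of all genes). In KO 1 was called higher and 3 lower (19.9% and 21%). The 9 eosinophil, basophil and mast cell markers summed to 20.2 to 30.5 and 5.79 to 10.9 CPM in WT, and to 24.3 to 38.6 and 9.24 to 12.6 CPM in KO. The part of other cells in the falls of Ltf, Ngp, S100a9, S100a8 and Chil3 was not tested.

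Ngp and S100a9 fell in the same comparisons. Ngp went from 16, 14.1 and 9.47 to 8.56, 2.15 and 6.28 CPM in WT (-1.18 ± 0.37, adjusted p = 0.0091) and from 36.3, 43.7 and 31 to 6.11, 11 and 15.4 CPM in KO (-1.76 ± 0.30, adjusted p = 2.6e-06). The WT change of Ngp was not called without library 2 (-0.79 ± 0.38, adjusted p = 0.098). S100a9 went from 12.6, 18.2 and 14.6 to 7.53, 2.48 and 7.96 CPM in WT (-1.35 ± 0.36, adjusted p = 0.0021, and -0.98 ± 0.37, adjusted p = 0.033 without library 2). In KO it went from 43.7, 59.1 and 38.2 to 9.84, 16.1 and 13.9 CPM (-1.83 ± 0.29, adjusted p = 5.8e-07).

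S100a8 did not go with its partner S100a9 in WT. It was at 10.1, 8.91 and 9.18 CPM in WT Control and 9.93, 21.3 and 11.8 CPM with LPS (0.62 ± 0.27, adjusted p = 0.067, and 0.22 ± 0.29 without library 2). In KO it fell, from 15.4, 20.6 and 16 to 11.5, 8.59 and 10.8 CPM (-0.74 ± 0.26, adjusted p = 0.019), a call lost without KO Control library 2 or KO LPS library 2 (adjusted p up to 0.11). Chil3 fell in KO from 12.2, 16.8 and 10.5 to 3.88, 3.92 and 4.54 CPM (-1.66 ± 0.33, adjusted p = 5e-05). In WT it was at 4.21, 4.29 and 4.08 CPM in Control and at 3.08, 0.165 and 3.98 CPM with LPS (-0.78 ± 0.41, adjusted p = 0.13, and -0.24 ± 0.36 without library 2), the value of 0.165 being 1 read of library 2. Whether the LPS changes differ between genotypes was not tested, since that difference is built from the contrast that chose the genes.

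The lysozymes and the collagenase barely moved with LPS at 24 h. Lyz2 was at 10880, 11089 and 11527 CPM in WT Control and at 10343, 14587 and 11281 CPM with LPS (0.11 ± 0.09, adjusted p = 0.37), and in KO at 6160, 5611 and 5890 against 5641, 5526 and 5576 CPM (-0.08 ± 0.09, adjusted p = 0.56). Lyz1 was called higher in WT, from 8.14, 6.69 and 7.43 to 12.2, 12.9 and 7.81 CPM (0.57 ± 0.21, adjusted p = 0.024), and not without library 2 (adjusted p = 0.15). Mmp8 was also called higher in WT, from 85.9, 90.3 and 90.6 to 88.1, 164 and 86.3 CPM (0.34 ± 0.13, adjusted p = 0.03), a change that library 2 alone made: without it the change was -0.03 ± 0.10. In KO, Lyz1 (0.22 ± 0.15) and Mmp8 (-0.28 ± 0.13) were not called.

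In all, LPS at 24 h raised 3 and lowered 3 of the 9 genes in WT (19.6% and 19.9% of all genes tested) and raised 1 and lowered 5 in KO (19.9% and 21%). Without WT library 2 the WT counts were 1 and 2. The median log2 fold change of the 9 was 0.11 in WT and -0.74 in KO, against -0.01 over all genes in each.

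**Figure D3:**
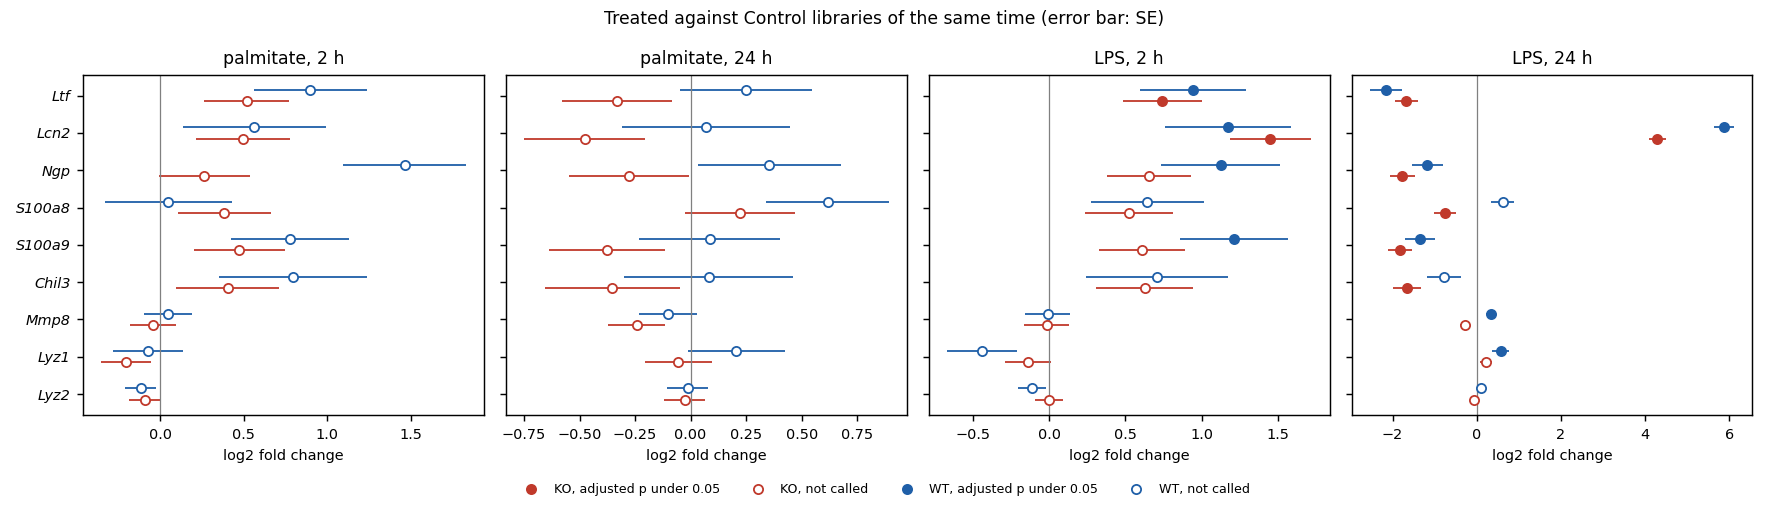
Each panel gives the log2 fold change of 9 genes against Control of the same time, for palmitate and LPS at 2 and 24 h, with the SE as error bar, WT in blue, KO in red and filled points for an adjusted p under 0.05; the horizontal scales differ. No palmitate point is filled, and with LPS at 24 h Lcn2 stands at 5.88 and 4.29 while Ltf stands at -2.16 and -1.67.

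After 2 h of LPS the same genes had not fallen. Lcn2 went from 4.45, 4.96 and 1.48 to 8.23, 4.73 and 10.8 CPM in WT, where the groups overlapped (1.17 ± 0.41, adjusted p = 0.033). In KO it went from 11.2, 12.4 and 6.45 to 17.5, 38.5 and 22.3 CPM with no overlap (1.45 ± 0.27, adjusted p = 2.3e-05), and this was called in each of 10 alternative settings. Ltf rose in WT, from 10.8, 7.94 and 5.19 to 10.7, 17.9 and 15.2 CPM (0.94 ± 0.35, adjusted p = 0.044), and in KO, from 28.6, 43.1 and 15.6 to 49.4, 59.4 and 37 CPM (0.74 ± 0.26, adjusted p = 0.031), with overlap in both. These calls of Ltf were lost in 5 and 6 of 10 alternative settings, DESeq2 among them.

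S100a9 rose in WT at 2 h, from 11.4, 8.27 and 4.30 to 21.1, 14.4 and 19.5 CPM without overlap (1.21 ± 0.35, adjusted p = 0.0076). Ngp rose in WT, from 6.39, 5.29 and 4.74 to 10.0, 5.96 and 18.6 CPM (1.12 ± 0.39, adjusted p = 0.03). In KO these genes were spread widely, S100a9 at 13.3, 60.2 and 30.3 CPM with LPS, and were not called (adjusted p = 0.12 and 0.08). LPS at 2 h thus raised 4 of 9 genes in WT (14% of all genes) and 2 in KO (14.7%) and lowered 0 in either (9.1% and 9.16%). Each of these counts hung on single libraries: without Control library 3, LPS library 3 or Control library 2 the WT count was 0, 1 or 2. In KO it was 1 without Control library 1 or 3 or LPS library 2, and 4 without LPS library 1 or 3. Without KO LPS library 1, the library that stood apart, Lcn2 (1.60 ± 0.27), S100a9 (0.92 ± 0.26, adjusted p = 0.0072) and S100a8 (0.81 ± 0.28, adjusted p = 0.029) were called. Ltf was not (adjusted p = 0.063). Camp, which the filter removed with all libraries, entered that fit (2.30 ± 0.73) and is part of its count of 4. Its highest count, 20 reads, lies in the KO LPS group tested, so its entry lends no support. With all libraries and no filter beyond 1 count, Camp was not called (2.00 ± 0.80, edgeR adjusted p = 0.10). Of other cells, the granulocyte precursor markers summed to 1.63 to 2.13 CPM in WT Control at 2 h and 2.15 to 7.24 CPM with LPS. In KO these sums overlapped. The eosinophil, basophil and mast cell markers went from 15.6 to 22.6 CPM up to 23.8 to 35.1 CPM in WT. In KO they went from 16.5 to 23.5 CPM up to 33.5 to 37.6 CPM. The monocyte markers overlapped in both genotypes. The part of other cells in these rises was not tested.

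Palmitate moved none of the 9 genes past the threshold. In WT the counts were 0 higher and 0 lower at 2 h (0.103% and 0.172% of all genes) and at 24 h (0.671% and 0.181%), and in KO 0 and 0 at 2 h (0.0774% and 0.0344%) and at 24 h (0.637% and 0.241%) by edgeR. At an unadjusted p under 0.05 there were 3 genes in WT at 2 h, 1 in WT at 24 h, 1 in KO at 2 h and 0 in KO at 24 h. DESeq2 also called 0 in each. Ngp came nearest, from 6.39, 5.29 and 4.74 to 17.9, 12.9 and 14.1 CPM in WT at 2 h, with no overlap (1.46 ± 0.37, adjusted p = 0.069). It was followed by Ltf (0.90 ± 0.34, adjusted p = 0.47) and S100a9 (0.78 ± 0.35, adjusted p = 0.62) in the same comparison. In that comparison WT Control at 2 h was the group in which Ngp, Ltf and S100a9 were lowest among the Control groups.

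In Control libraries several of the granule genes rose with culture time, most of all between the early times and 24 h. Mmp8 rose from 54.8, 50.5 and 57.3 CPM at 0 h to 85.9, 90.3 and 90.6 CPM at 24 h in WT (0.72 ± 0.13, adjusted p = 0.00012) and from 65.2, 54.8 and 56.7 to 105, 102 and 97.3 CPM in KO (0.78 ± 0.13, adjusted p = 2.9e-05). These groups did not overlap, and the rise from 2 to 24 h was of like size (0.93 ± 0.14 in WT and 0.87 ± 0.13 in KO). S100a8 rose from 2.90, 4.89 and 5.42 to 10.1, 8.91 and 9.18 CPM in WT (1.05 ± 0.31, adjusted p = 0.017) and from 10.0, 8.90 and 5.76 to 15.4, 20.6 and 16 CPM in KO (1.08 ± 0.27, adjusted p = 0.006), again without overlap. Time comparisons share Control libraries with each other, with the treatment comparisons and with the genotype contrast that chose the genes. Their p-values are thus not wholly free of that choice either.

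In KO, Ltf, Lcn2, Ngp, S100a9 and Chil3 also rose from 0 to 24 h. Ltf went from 21, 26.4 and 26.3 to 50.4, 72.2 and 30 CPM (1.03 ± 0.26, adjusted p = 0.0054), and Chil3 from 4.71, 4.11 and 6.30 to 12.2, 16.8 and 10.5 CPM (1.38 ± 0.33, adjusted p = 0.0036). Lcn2 (1.17 ± 0.30), Ngp (0.89 ± 0.28) and S100a9 (1.06 ± 0.27) had adjusted p of 0.0078, 0.038 and 0.0071. In WT the changes over the same time were 0.29 ± 0.31 for Ltf, 0.07 ± 0.37 for Lcn2, -0.09 ± 0.32 for Ngp, 0.02 ± 0.31 for S100a9 and 0.38 ± 0.39 for Chil3, and none was called. That the changes of the genotypes differ was not tested, for the reason given above.

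Of the 9 genes, Ngp was the 1 called lower in WT from 0 to 2 h, from 15.2, 9.47 and 16 to 6.39, 5.29 and 4.74 CPM (-1.32 ± 0.36, adjusted p = 0.0081), and Ltf (-0.79 ± 0.34, adjusted p = 0.11) and S100a9 (-0.96 ± 0.34, adjusted p = 0.0504) were not called. In the same WT groups the granulocyte precursor markers went from 3.16 to 5.25 CPM down to 1.63 to 2.13 CPM. The eosinophil, basophil and mast cell markers went from 29.5 to 35.2 CPM down to 15.6 to 22.6 CPM. The sum of the 5 monocyte markers rose, from 119 to 128 CPM up to 142 to 185 CPM, with F13a1 by far the highest of them in median level. Of 6 monocyte markers with Chil3, 1 was called higher and 0 lower (8.41% and 5.85% of all genes), and their median log2 fold change was -0.65. The part of other cells in the changes over time was not tested. From 2 to 24 h Ngp (1.24 ± 0.38, adjusted p = 0.022) and Ltf (1.08 ± 0.34, adjusted p = 0.024) rose in WT. Lyz2 fell in KO from 7365, 5377 and 8766 CPM at 0 h to 5563, 5065 and 5293 CPM at 2 h (-0.43 ± 0.09, adjusted p = 0.00065), with overlap, and its change from 0 to 24 h was -0.28 ± 0.09 (adjusted p = 0.048), a call lost in 6 of 10 alternative settings, with changes of -0.46 to -0.12 (adjusted p up to 0.61). The wide spread at 0 h lay in the KO libraries, while the WT libraries of that time lay between 10146 and 10238 CPM.

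Counted over the 9 genes in WT, 0 rose and 1 fell from 0 to 2 h (8.41% and 5.85% of all genes), 2 rose and 0 fell from 0 to 24 h (5.72% and 6.42%), and 4 rose and 0 fell from 2 to 24 h (4.28% and 7.15%). In KO, 0 rose and 1 fell from 0 to 2 h (6.5% and 5.59%), 7 rose and 1 fell from 0 to 24 h (3.71% and 4.46%), and 4 rose and 0 fell from 2 to 24 h (3.41% and 5.92%). The median log2 change of the 9 from 0 to 24 h was 0.13 in WT and 1.03 in KO, against 0.0049 and 0.0067 over all genes. KO Control 24 h library 2, the highest of its group for Ltf, Lcn2, Ngp, S100a8, S100a9 and Chil3, carried much of this: without it the KO counts were 1 for 0 to 24 h and 1 for 2 to 24 h. Without KO Control 0 h library 3 the count for 0 to 24 h was 5, and without KO Control 2 h library 3 that for 2 to 24 h was 1. Without library 3 of Control at 0 h, the falls of Ngp in WT and of Lyz2 in KO from 0 to 2 h were lost, and without WT Control 0 h library 1 so was the rise of S100a8 in WT from 0 to 24 h. From 2 to 24 h in WT the count was 2 without library 2 or 3 at 2 h, or without library 1 or 2 at 24 h.

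**Figure D4:**
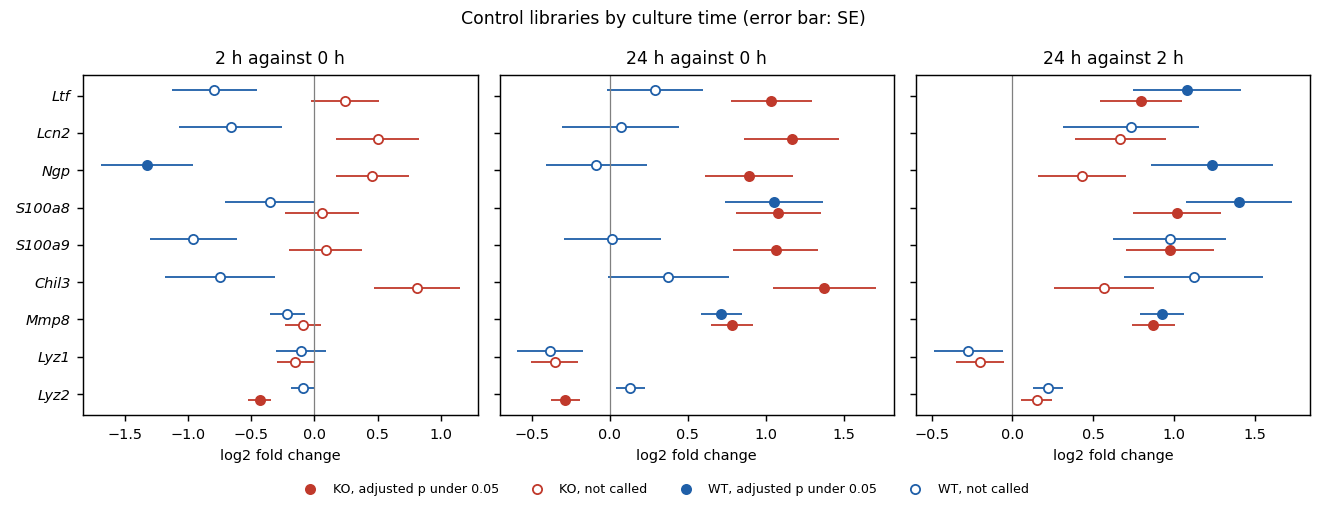
Each panel gives the log2 fold change of 9 genes between culture times of the Control libraries, with the SE as error bar, WT in blue, KO in red and filled points for an adjusted p under 0.05. From 0 to 24 h the KO points of 7 genes are filled and lie between 0.78 and 1.38, while Lyz2 lies at -0.28.

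Other granule genes also rose and fell with LPS at 24 h. Of 25 further genes of the azurophil, specific and gelatinase granules, 17 were tested, and 7 rose and 4 fell in WT (beside 19.6% and 19.9% of all genes), 7 rose and 6 fell in KO (beside 19.9% and 21%). In the specific granule list, Hp, the haemoglobin scavenger haptoglobin, rose from 5.90 ± 0.95 to 86.2 ± 23.5 CPM in WT (SD, n = 3), a log2 fold change of 3.87 ± 0.22 (edgeR adjusted p = 4.8e-21), and by 3.48 ± 0.20 in KO, and Slpi, a leukocyte protease inhibitor, rose by 2.95 ± 0.17 and 2.63 ± 0.17. Cd177, a neutrophil surface glycoprotein, fell by 1.24 ± 0.31 and 1.35 ± 0.30 on the log2 scale. Mmp9, the gelatinase of the gelatinase granule, rose by 3.48 ± 0.16 and 2.90 ± 0.16. In the azurophil list only Ctsc, the protease that activates the granule serine proteases, and Srgn, the granule proteoglycan, were called, and both rose in each genotype.

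At 2 h of LPS, 4 of the 17 rose and 0 fell in each genotype (14% of all genes rose in WT and 14.7% in KO), among them Ctsc (2.20 ± 0.08 in WT and 2.34 ± 0.08 in KO). Of the 6 tested S100 genes other than the calprotectin pair, 0 rose and 4 fell in WT and 0 rose and 5 fell in KO at 24 h, beside the same shares of all genes at that time, with S100a4 at -1.58 ± 0.21 and -1.72 ± 0.20. The receptors Fpr1 and Fpr2, which sense formylated peptides, rose at 24 h (Fpr2 by 4.46 ± 0.21 in WT and 4.32 ± 0.21 in KO), and Lrp1, an endocytic receptor that also binds lactoferrin, fell by 1.66 ± 0.07 and 1.42 ± 0.07. Of the transcription factors, Nfkbiz, the inhibitor-kappaB zeta required for Lcn2 induction, rose at 2 h by 5.44 ± 0.11 and 5.16 ± 0.11, and Cebpa fell at 24 h by 1.95 ± 0.10 and 1.71 ± 0.10 while Cebpb rose by 0.84 ± 0.10 and 1.09 ± 0.10. Cebpe, the C/EBP factor of granule genes, is given here outside the naming rule and was not tested, with 0 to 9 reads per library.

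Within groups, where neither genotype nor treatment differs, Ltf, Ngp, S100a9 and Chil3 varied together from library to library, and most other pairs did not pass the test. Pearson and Spearman correlations of log2 CPM centred on group means were computed for all 36 pairs of the 9 genes over 42 libraries, with 100000 permutations within groups, two-sided, and Benjamini-Hochberg adjustment over the 36 pairs. By Pearson's r, 9 pairs passed an adjusted p of 0.05, and 13 by Spearman's rho. Ltf and Chil3 were closest (r = 0.78, adjusted permutation p = 0.0011, raw p = 6e-05, rho = 0.75, adjusted p = 0.00054), and r was 0.69 without the 2 libraries farthest from the Ltf median. Ltf and Ngp had r = 0.69 (adjusted permutation p = 0.004), Ngp and Chil3 0.66 (0.0011), Ltf and S100a9 0.65 (0.0052), and Ngp and S100a9 0.60 (0.0041).

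Lcn2 went with the calprotectin genes within groups, with r = 0.56 with S100a9 (adjusted permutation p = 0.011) and 0.54 with S100a8 (0.004). Ngp and Lyz2 varied inversely (r = -0.57, rho = -0.64, adjusted permutation p = 0.004 and 0.0027, r = -0.48 without the 2 farthest libraries). Without the 12 LPS libraries, the pairs of Lcn2 with S100a8 and of Ngp with Lyz2 no longer passed (adjusted permutation p = 0.054 and 0.11). Mmp8 passed with no gene and had r of -0.32 to -0.58 with Ltf, Ngp, S100a9 and Chil3. These values were weaker by rho (-0.06 to -0.27) and without the 2 farthest libraries (r of -0.07 to -0.30). S100a8 and S100a9 themselves were not correlated past the threshold (r = 0.37, adjusted permutation p = 0.42), and neither were Lyz1 and Lyz2 (r = 0.22, adjusted permutation p = 0.55). These libraries share the depth and counting of low reads, and WT LPS 24 h library 2 was low in Ltf, Ngp, Chil3 and S100a9 at once.

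**Figure D5:**
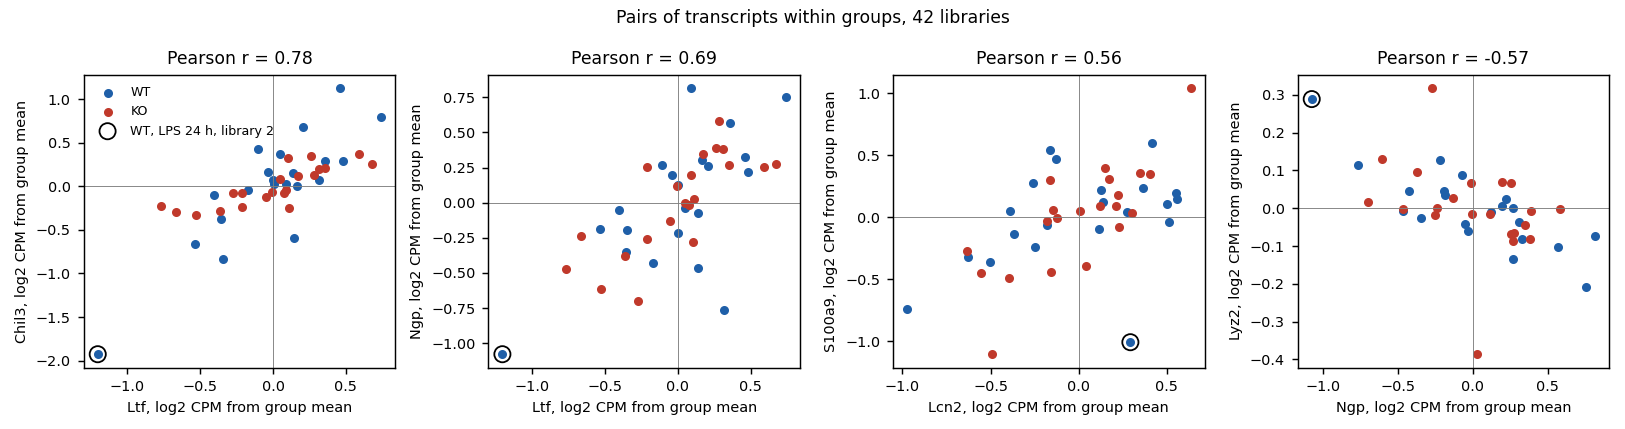
Each panel sets the log2 CPM of a gene against that of another as the distance from the mean of its group, with 1 point per library, WT in blue, KO in red and WT LPS 24 h library 2 ringed. The panels have Pearson's r of 0.78, 0.69, 0.56 and -0.57, and the ringed library is the lowest in Ltf, Ngp and Chil3.

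Over the 14 group means, the genes with patterns most like Ltf among all genes tested were S100a9 (Pearson's r = 0.97), Ngp (0.96) and Chil3 (0.95), all from the selected genes. S100a9 was followed by Olfm4, another specific granule gene, at 0.94. Lcn2 was most like Treml2 (0.97), Ly6c2 (0.97) and Dnajc1 (0.96), Mmp8 most like Maged2 (0.94), S100a8 most like Srgap3 (0.88), Lyz1 most like Wdfy1 (0.88) and Lyz2 most like Cdk5rap1 (0.89). These means share genotype and treatment, on which the genes were chosen in part, and the values are a description.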

How the data were processed

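The table held whole-number read counts per gene that the authors deposited, made from paired reads of 42 ribodepleted RNA libraries. The submitters' processing notes list fastp 0.19.11, STAR 2.7.3a and the builds mm10 and mm9. The counting tool's use of strand, its annotation release and its treatment of reads shared by near-identical genes were not given in the sources used here. The columns name genotype, treatment and time but carry no replicate number, so libraries are numbered 1 to 3 in table order as names only.

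Gene symbols matched 32620 of 37310 identifiers. Counts were scaled by TMM, filtered with filterByExpr (11624 genes kept) and fitted in 1 model of 14 groups with edgeR 4.0.16 (R 4.3.3) by the quasi-likelihood F test, with Benjamini-Hochberg adjustment and calls at an adjusted p under 0.05. The scripts were tested on simulated data. Levels are CPM and fold changes are on the log2 scale with their SE. For correlations, a prior count of 2 was added before CPM were put on the log2 scale (Python 3.11.15, scipy 1.17.1). Members and gene lists were chosen with earlier results of these data known. Genes outside the members were named as the called genes of a list with the smallest adjusted p, at most 2 per direction and comparison, with a mean of at least 1 CPM. Alternatives were RLE size factors, no filter beyond 1 count, a fit restricted to the 2 groups at hand, DESeq2 1.42.0, leaving out each library, a prior count of 0.5 and leaving out LPS libraries. Totals of 2848793 to 7743442 counts per library set the precision, and intervals and floors cover counting error only.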

Additional observations from a re-analysis of the deposited data

How the results depend on the processing

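No paired analysis was possible because the table's columns carry no replicate number, so the fit with a replicate block was not run. RLE size factors changed no count of called members. Without the low-count filter, 3 members were called for palmitate at 2 h in WT in place of 0, 4 for LPS at 2 h in KO in place of 2, 3 for 0 to 2 h in WT in place of 1, and 8 for 2 to 24 h in WT in place of 4. In fits of only the libraries compared these were 1 for palmitate at 2 h in WT, 3 for 0 to 2 h in WT, 7 for 2 to 24 h in WT, and 2 for 0 to 2 h in KO in place of 1. DESeq2 called 2 for 2 to 24 h in KO in place of 4. Leaving out 1 library at a time gave 0 to 4 for LPS at 2 h and 3 to 8 for LPS at 24 h in WT, and 1 to 4 for LPS at 2 h in KO. For time it gave 0 to 2 (0 to 2 h), 1 to 2 (0 to 24 h) and 2 to 5 (2 to 24 h) in WT, and 0 to 1, 1 to 8 and 1 to 5 in KO. The genes wholly lower in KO numbered 1 to 2 in Control at 0 h, palmitate at 24 h and LPS at 24 h.

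For the other granule genes, whose alternatives were chosen after seeing the data, leaving out 1 library gave 0 to 1 for palmitate at 24 h in WT in place of 2, 2 to 5 for LPS at 2 h in KO, and 1 to 2, 3 to 5 and 2 to 4 for 0 to 2, 0 to 24 and 2 to 24 h in KO. Palmitate at 24 h in KO gave 1 in place of 0 without the filter and with only the libraries compared, and 0 to 2 h in WT gave 1 in place of 0 with only the libraries compared. Mmp8 with LPS at 24 h in WT turned from 0.34 to -0.032 without library 2 and lay between that and 0.50 over the left-out libraries. The cause of these shifts was not tested. The 2 libraries that stood apart were left out of the genotype values after seeing the data.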
